A study of Mus musculus with 12 samples.

Results

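The messenger RNAs of 40 lysosome and autophagy genes were followed in mouse kidney tubular epithelial cells given TGFβ, a small-molecule inhibitor of nicotinamide N-methyltransferase (NNMTi), or both. The genes were chosen by symbol: 3 transcription factors of the MiT/TFE family, 9 proteases, 6 glycosidases, 7 genes of lipid handling, 4 membrane proteins, 3 subunits of the proton pump, 3 genes of autophagy initiation and 5 of autophagosome conjugation and cargo. All 40 had a row among the 55487 genes of the count table, and 38 of them passed the filter on low counts. *Ctsh* had 0 counts in every library and *Ctss* between 0 and 5, so neither was tested. The cells, im-TEC, are a conditionally immortalized tubular epithelial line with SV40 large T antigen, and all groups were grown in conditions that lower the antigen's activity before seeding. The groups, each of 3 libraries, were TGFβ with NNMTi (the combined group), TGFβ alone (10 ng/mL), NNMTi alone (5-amino-1-methylquinolinium, 50 µM) and control, with treatment for 48 h. The labels do not say whether the replicates were separate cultures. The p-values therefore rest on library-to-library spread that may be technical.

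Lysosomes are acidic compartments in which hydrolases digest material delivered by endocytosis and autophagy. A V-type proton pump keeps the lumen acid, and membrane glycoproteins such as LAMP1 and LAMP2 line it. In autophagy, the ULK1 kinase and a Beclin 1 lipid kinase complex start a double membrane, ATG5 and ATG7 help attach LC3 and GABARAP proteins to it, and receptors such as p62 (*Sqstm1*) bring in cargo. Transcription factors of the MiT/TFE family, including TFEB, TFE3 and MITF, bind the CLEAR element found near the start of many lysosomal genes and are held in the cytosol by mTORC1 when nutrients are plentiful. Tubular epithelium takes up filtered protein and depends heavily on this system.

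The core of the CLEAR element is CACGTG, which reads the same on both strands. RefSeq promoter windows (GRCm38.p6), running from 250 bases before to 50 bases after an annotated start, were given for 34 of the 40 genes, and 12 of these genes (35.3%) had CACGTG in a window, against 8.09% of all 27025 genes in the RefSeq table. The longer TCACGTGA, which contains CACGTG and was searched in the same way on both strands, occurred in 5 of the 34 genes (14.7%), against 1.12% of all genes. A letter match is a description of the window and not a bound site. The windows of 5 genes with CACGTG whose counts changed with TGFβ are printed because they show how the element is placed. *Ctsl*, which also had CACGTG and rose with TGFβ, is not printed. *Lamp1* (chr8:13158911-13159210, plus strand) holds 4 copies, all before its start. *Ctsd* (chr7:142387778-142388077, minus strand), *Ctsa* (chr2:164833523-164833822, plus strand) and *Gla* (chrX:134600956-134601255, minus strand) hold 2, and *Gaa* (chr11:119267713-119268012, plus strand) holds 1. A further *Ctsa* window had no match. Each is written from 5′ to 3′ on the gene's strand, and capitals mark CACGTG.
Lamp1: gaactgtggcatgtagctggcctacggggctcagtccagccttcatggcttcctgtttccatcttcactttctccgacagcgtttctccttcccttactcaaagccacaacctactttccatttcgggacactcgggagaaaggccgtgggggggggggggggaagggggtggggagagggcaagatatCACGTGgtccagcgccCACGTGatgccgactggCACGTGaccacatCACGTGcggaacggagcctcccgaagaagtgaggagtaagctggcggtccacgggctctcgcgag
Ctsd: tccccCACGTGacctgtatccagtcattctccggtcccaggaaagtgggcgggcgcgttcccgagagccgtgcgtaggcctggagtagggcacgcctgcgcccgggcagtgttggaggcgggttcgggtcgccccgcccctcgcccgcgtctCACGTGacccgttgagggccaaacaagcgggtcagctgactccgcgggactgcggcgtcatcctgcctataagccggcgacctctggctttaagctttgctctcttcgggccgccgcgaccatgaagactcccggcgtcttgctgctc
Ctsa: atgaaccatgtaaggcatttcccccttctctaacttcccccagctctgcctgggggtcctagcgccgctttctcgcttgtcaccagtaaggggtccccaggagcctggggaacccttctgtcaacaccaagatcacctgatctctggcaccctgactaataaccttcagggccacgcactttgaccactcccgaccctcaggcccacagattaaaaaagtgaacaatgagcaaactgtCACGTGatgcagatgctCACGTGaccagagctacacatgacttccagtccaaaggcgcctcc
Gaa: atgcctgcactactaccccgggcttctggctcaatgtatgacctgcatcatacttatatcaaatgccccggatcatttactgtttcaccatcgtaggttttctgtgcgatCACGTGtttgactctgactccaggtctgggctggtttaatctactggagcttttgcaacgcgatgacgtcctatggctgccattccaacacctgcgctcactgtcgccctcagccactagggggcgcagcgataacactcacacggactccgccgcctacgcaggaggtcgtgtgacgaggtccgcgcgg
Gla: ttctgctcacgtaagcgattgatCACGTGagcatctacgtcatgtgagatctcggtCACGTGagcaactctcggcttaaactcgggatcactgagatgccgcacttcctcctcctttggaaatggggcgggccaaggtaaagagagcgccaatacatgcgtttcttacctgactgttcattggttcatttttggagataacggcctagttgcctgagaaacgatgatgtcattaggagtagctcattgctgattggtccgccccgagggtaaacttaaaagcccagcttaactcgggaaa
In the TGFβ group against the control group, at an edgeR adjusted p below 0.05, 19.4% of all tested genes rose and 17.1% fell (36.5% in all). Of the 12 tested genes with CACGTG, 2 rose (*Ctsl* and *Gla*), 4 fell (*Ctsa*, *Ctsd*, *Gaa* and *Lamp1*) and 6 did not pass. Of the 21 tested genes with a window and no match, 3 rose, 9 fell and 9 did not pass.

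Levels are given as CPM, the counts of a gene scaled to a common library size, with TMM factors applied. The libraries were made with QuantSeq 3′ FWD, which reads a tag at the end of each transcript, so counts do not scale with transcript length. Other differences between genes in how reads were counted were not tested, so CPM compares genes only roughly. Totals in genes ran from 2584117 to 11866903 counts, both extremes in the TGFβ group, where 3 counts corresponded to 1.15 CPM in replicate 3 and 0.266 CPM in replicate 2. The TGFβ libraries stood apart from each other: the biological coefficient of variation was 0.112 in the combined group, 0.228 in the TGFβ group, 0.0885 in the NNMTi group and 0.0657 in the control group. TGFβ replicate 2 had the lowest sample quality weight, 0.146. Results that turned on a TGFβ library are given with and without it. *Col1a1*, a collagen gene that TGFβ induces, was 5.19 higher on the log2 scale in the TGFβ group than in the control group (edgeR adjusted p = 1.6e-10). Of 12 tubular epithelial markers *Pax8*, *Pax2*, *Cdh16* and *Lrp2* were present, but *Epcam* and *Slc34a1* had 0 counts and *Hnf4a* and *Cubn* averaged under 1 CPM. The summed level of the list ran from 685 to 715 CPM in the combined group, 702 to 1096 CPM in the TGFβ group, 1913 to 1966 CPM in the NNMTi group and 1884 to 2043 CPM in the control group. The markers did not move one way: *Krt8*, a keratin gene, rose in the TGFβ group against the control group (2.21, adjusted p = 1.41e-07) and in the combined group against the NNMTi group (2.83, adjusted p = 1.01e-08), and *Krt18* rose in the TGFβ group against the control group (2.35, adjusted p = 0.00508). *Aqp1*, a water channel gene, averaged 11.5 CPM in the combined group, 25.2 CPM in the TGFβ group, 995 CPM in the NNMTi group and 1012.5 CPM in the control group. Most of the lower summed level with TGFβ was *Aqp1* alone. Of 12 macrophage markers, whose cells are rich in lysosomes, 9 averaged under 1 CPM and *Adgre1*, *Mrc1*, *Tyrobp*, *C1qa* and *C1qb* had 0 counts. Their summed level was 32.0 to 35.4 CPM in the combined group, 54.2 to 71.7 CPM in the TGFβ group, 67.3 to 81.6 CPM in the NNMTi group and 92.6 to 95.5 CPM in the control group, most of it *Csf1r* and *Cd14*, while *Fcer1g* rose in both comparisons (1.87, adjusted p = 0.00189, and 1.30, adjusted p = 0.0281). Of 6 fibroblast markers 5 averaged under 1 CPM, *Pdgfra*, *Lum* and *Thy1* had 0 counts, and the summed level was 1.5 to 3.03 CPM in the combined group, 3.81 to 8.80 CPM in the TGFβ group, 0 to 0.991 CPM in the NNMTi group and 0.242 to 1.12 CPM in the control group. Nearly all of it was *Pdgfrb*, which rose in both comparisons (3.34, adjusted p = 0.000239, and 2.56, adjusted p = 0.00489). All 6 endothelial markers averaged under 1 CPM. The part of these shifts in the results below was not tested. Because these are bulk libraries, fewer cells with a transcript and less of it per cell cannot be told apart.

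Lysosomal genes were among the more abundant transcripts of these cells. *Ctsd*, encoding the aspartic protease cathepsin D, averaged 1763 CPM over the 12 libraries, *Cd63* 1337 CPM, *Psap* 847 CPM and *Lamp1* 791 CPM. At the other end, the transcription factors *Mitf* and *Tfeb* averaged 13.4 and 12.4 CPM, and *Gla* 5.17 CPM. Summed over the 40 genes, the level was 9376 ± 203 CPM in the combined group, 8900 ± 814 CPM in the TGFβ group, 10176 ± 377 CPM in the NNMTi group and 9856 ± 146 CPM in the control group (SD, n = 3 each).

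**Figure D1:**
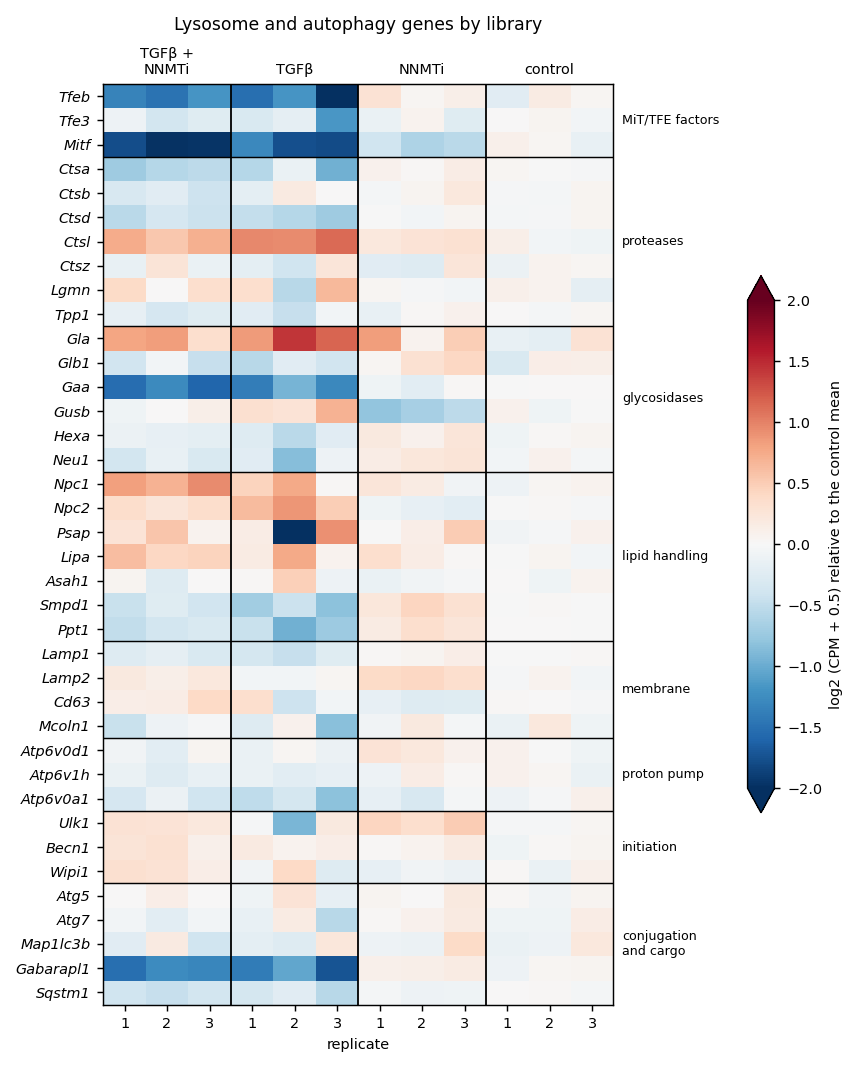
Level of each of the 38 tested genes in each library as log2 (CPM + 0.5) relative to the control mean, in columns of 3 replicates for the combined, TGFβ, NNMTi and control groups and in rows grouped by role. *Tfeb*, *Mitf*, *Gaa* and *Gabarapl1* are low in all 6 libraries with TGFβ and *Ctsl* is high in them, while *Psap* in TGFβ replicate 2 and *Tfeb* in TGFβ replicate 3 lie beyond the colour scale, which ends at 2 on either side.

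TGFβ changed these genes in both directions, with more falls than rises. In the TGFβ group against the control group, 6 of the 38 tested genes rose and 13 fell at an adjusted p below 0.05 (edgeR quasi-likelihood test with Benjamini-Hochberg adjustment over all 13581 tested genes). Called genes made up 50% of the lysosome and autophagy genes, beside 36.5% of all tested genes (19.4% up, 17.1% down). Many of the 38 are abundant, and they were chosen with earlier results of these data known. The shares here were not compared with those of genes at a similar level, so the part of level in them was not tested. The median log2 fold change was -0.15 over the 38 genes and 0.02 over all tested genes. With the inhibitor present, in the combined group against the NNMTi group, 6 rose and 14 fell (52.6%), beside 36.3% of all genes (18% up, 18.3% down). The median was -0.21 over the 38 genes and -0.00 over all. These 2 comparisons share no library. Calls in the same direction in both numbered 16, which is 84.2% of the first list and 80% of the second, against 71.7% and 72.1% for all called genes.

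**Figure D2:**
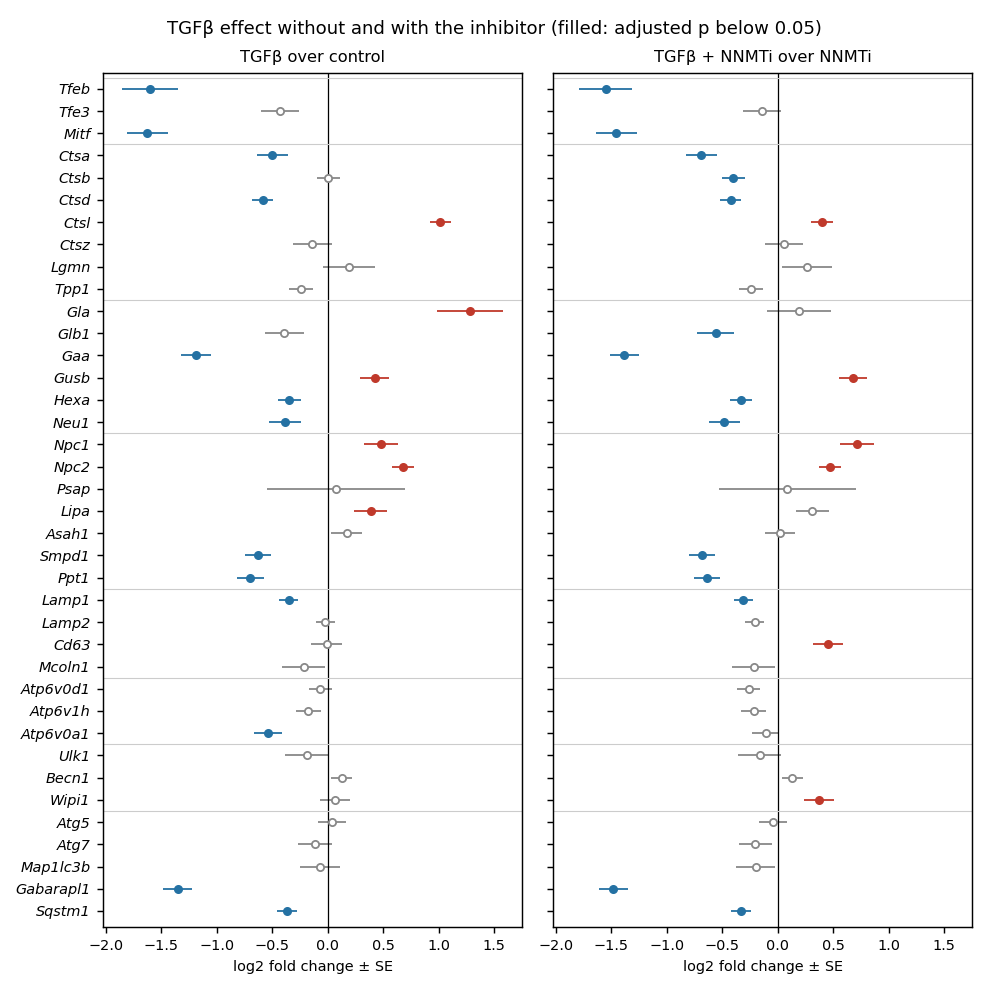
Log2 fold change ± SE of the 38 genes for TGFβ over control (left) and for TGFβ with NNMTi over NNMTi (right), filled red or blue where the adjusted p was below 0.05. The 4 rises and 12 falls shared by both panels include *Ctsl*, *Gusb*, *Npc1* and *Npc2* on the right of 0 and *Tfeb*, *Mitf*, *Gaa* and *Gabarapl1* on the far left.

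By point estimate, the transcription factor genes *Mitf* and *Tfeb* had the 2 deepest falls of the 38 genes in the TGFβ group against the control group, and *Tfeb* the deepest in the combined group against the NNMTi group. *Tfeb*, encoding the factor best known for driving lysosomal genes, was at 5.92, 7.53 and 1.91 CPM in the TGFβ libraries, against 15.1, 20.0 and 18.2 CPM in the controls. It was at 6.71, 6.07 and 7.53 CPM in the combined group, against 21.9, 18.2 and 19.2 CPM in the NNMTi group. All 6 libraries with TGFβ lay below all 6 without it, and the lowest value, in TGFβ replicate 3, came from 5 counts. The log2 fold change was -1.60 ± 0.25 (SE; 3.03-fold lower; adjusted p = 5.58e-05) without the inhibitor and -1.55 ± 0.24 (2.93-fold lower; adjusted p = 4.71e-05) with it. *Mitf*, first known for its part in pigment cells, was at 9.37, 6.64 and 6.5 CPM in the TGFβ group, against 25.6, 24.2 and 21.3 CPM in the control group. With the inhibitor it was at 6.6, 5.62 and 5.68 CPM in the combined group, against 17.8, 15.3 and 16.1 CPM in the NNMTi group. Here too the 2 sets of libraries did not overlap. *Mitf* fell by 1.62 on the log2 scale (SE 0.18, adjusted p = 1.4e-06) without the inhibitor and by 1.45 (SE 0.19, adjusted p = 5.29e-06) with it. *Tfe3*, the most abundant of the 3 here, lay at the threshold. It was at 42.8, 46.7 and 23.3 CPM in the TGFβ group, against 52.9, 54.6 and 50.6 CPM in the control group, so that replicate 3 stood well under the other TGFβ libraries. The log2 difference was -0.43 ± 0.17 (adjusted p = 0.0581), and it was -0.58 (adjusted p = 0.00598) without TGFβ replicate 2 and -0.23 (adjusted p = 0.163) without TGFβ replicate 3. It also passed, at adjusted p from 0.0415 to 0.0491, when any NNMTi or combined library was left out. With RLE size factors, library size alone, no filter, DESeq2 or limma-voom it passed as well (adjusted p = 0.00897 to 0.0426). Between the combined and NNMTi groups *Tfe3* differed by -0.14 ± 0.17 (adjusted p = 0.551).

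**Figure D3:**
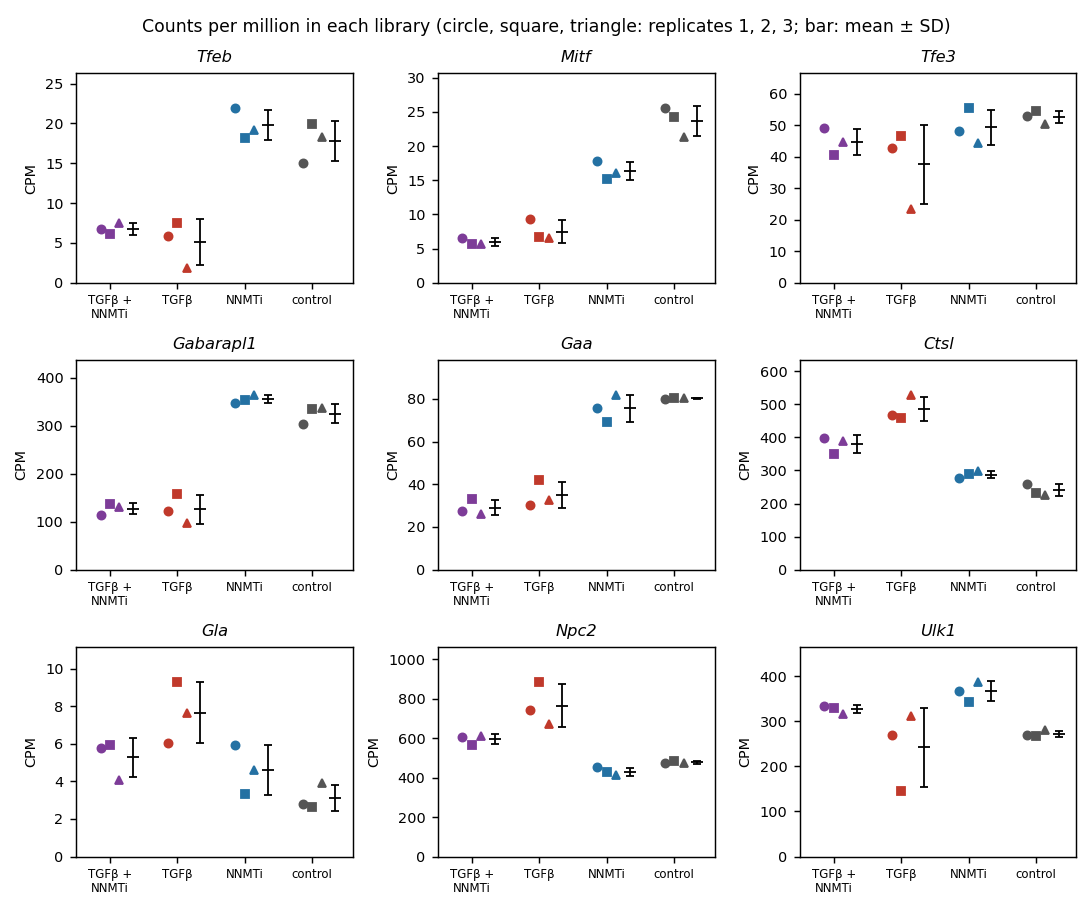
CPM in each library for 9 genes, with circles, squares and triangles for replicates 1, 2 and 3 and bars for the mean ± SD of 3 libraries; each vertical axis starts at 0. The libraries with TGFβ are low for *Tfeb*, *Mitf*, *Gabarapl1* and *Gaa* and high for *Ctsl* and *Npc2*, and TGFβ replicate 2 is the low point of *Ulk1*.

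Among the proteases, cathepsin L rose while cathepsins A and D fell. *Ctsl*, encoding a cysteine protease that also matures other lysosomal enzymes, was at 469, 459.9 and 528 CPM in the TGFβ group, against 260.4, 232 and 226 CPM in the control group, a rise of 1.02 ± 0.10 on the log2 scale (2.02-fold; adjusted p = 1.48e-07). With the inhibitor it was at 399, 348 and 390.5 CPM in the combined group, against 276, 289.8 and 297 CPM in the NNMTi group, a rise of 0.40 ± 0.10 (1.32-fold; adjusted p = 0.00285). Each library with TGFβ was above each library without it, and the highest combined library was below the lowest TGFβ library. *Ctsd* was at 1481, 1388 and 1268 CPM in the TGFβ group, against 2007, 2043 and 2158 CPM in the control group (log2 fold change -0.58 ± 0.09, adjusted p = 6.79e-05). The combined group, at 1426, 1648 and 1543 CPM, was likewise below the NNMTi group, at 2060.1, 1986 and 2146 CPM (-0.42 ± 0.09, adjusted p = 0.0014). *Ctsa* encodes a serine carboxypeptidase that also protects β-galactosidase and neuraminidase from breakdown. It was at 126, 171 and 96.8 CPM in the TGFβ group, against 193, 187 and 185 CPM in the control group. It was at 114, 127 and 131 CPM in the combined group, against 199, 192 and 209 CPM in the NNMTi group. All libraries with TGFβ were below all without, and the log2 fold changes were -0.50 ± 0.14 (adjusted p = 0.00944) without the inhibitor and -0.69 ± 0.14 (adjusted p = 0.000771) with it. *Ctsb*, another cysteine cathepsin, averaged 203 ± 13.8 CPM in the combined group, 255 ± 31.8 CPM in the TGFβ group, 268 ± 23.3 CPM in the NNMTi group and 254 ± 8.49 CPM in the control group (SD, n = 3 each). It passed in the combined group against the NNMTi group only (-0.40 ± 0.10, adjusted p = 0.00534), and the TGFβ effects with and without the inhibitor differed by -0.41 ± 0.15 (adjusted p = 0.277). *Ctsz*, *Lgmn* and *Tpp1* did not pass in either comparison. For *Lgmn*, encoding an asparaginyl endopeptidase, this turned on 1 library: it was at 88.5, 47.4 and 111 CPM in the TGFβ group, against 74.9, 73.8 and 61.7 CPM in the control group, and without TGFβ replicate 2 the log2 fold change was 0.47 (adjusted p = 0.00306) in place of 0.19 (adjusted p = 0.558). Without the same library it also passed in the combined group against the NNMTi group (0.28, adjusted p = 0.0352). *Tpp1*, encoding a tripeptidyl peptidase, passed without TGFβ replicate 3 in the first comparison (-0.34, adjusted p = 0.0149), and without TGFβ replicate 2 (-0.23, adjusted p = 0.0169) or 3 (-0.24, adjusted p = 0.0468) in the second.

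Of the 6 glycosidases, 2 rose and 3 fell in the TGFβ group against the control group. *Gaa*, encoding the acid α-glucosidase that degrades glycogen in lysosomes, was at 30.5, 41.8 and 32.5 CPM in the TGFβ group, against 79.8, 80.3 and 80.5 CPM in the control group. It was at 27.5, 32.9 and 26.3 CPM in the combined group, against 75.6, 69.1 and 81.8 CPM in the NNMTi group. The values with TGFβ were under 42 CPM in all 6 libraries and those without it above 69 CPM. *Gaa* fell by 1.18 (SE 0.13, adjusted p = 1.21e-06) on the log2 scale without the inhibitor and by 1.38 (SE 0.13, adjusted p = 1.23e-07) with it. *Gla*, encoding α-galactosidase A, went the other way at a low level: 6.03, 9.30 and 7.65 CPM in the TGFβ group, against 2.79, 2.66 and 3.93 CPM in the control group (log2 fold change 1.29 ± 0.30, 2.44-fold, adjusted p = 0.00214). With TGFβ replicates 2 and 3 both left out it was 0.92, a value that rests on a single TGFβ library. In the combined group *Gla* was at 5.79, 5.96 and 4.09 CPM, against 5.95, 3.31 and 4.59 CPM in the NNMTi group, overlapping ranges whose log2 difference was 0.20 ± 0.29 (adjusted p = 0.635). The change in the *Gla* response itself, -1.09 ± 0.41, had an adjusted p of 0.307. *Gusb*, encoding β-glucuronidase, was at 60.6, 58.7 and 78.4 CPM in the TGFβ group, against 51.6, 45.5 and 48.3 CPM in the control group. It was at 45.8, 48.7 and 52.6 CPM in the combined group, against 28.0, 30.4 and 33.4 CPM in the NNMTi group. The NNMTi libraries were the lowest of the 4 groups and the TGFβ libraries the highest. *Gusb* rose by 0.42 ± 0.13 (adjusted p = 0.0135) without the inhibitor and by 0.68 ± 0.13 (adjusted p = 0.000388) with it. The first of these had an adjusted p of 0.0633 without control replicate 2 and of 0.0572 without TGFβ replicate 3. *Hexa* and *Neu1*, encoding a β-hexosaminidase subunit and a sialidase, fell in both comparisons by 0.33 to 0.48 on the log2 scale. Their calls are taken up with the single-library checks below. *Glb1*, the β-galactosidase read by the classical stain for senescent cells, was -0.39 ± 0.17 (adjusted p = 0.0893) in the TGFβ group against the control group, passing without control replicate 1 (adjusted p = 0.0356) or TGFβ replicate 2 (adjusted p = 0.0359), and fell by 0.56 (SE 0.17, adjusted p = 0.0135) in the combined group against the NNMTi group.

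Genes of lipid handling moved in both directions, and those for cholesterol export rose. *Npc2*, encoding the soluble carrier, was at 739.6, 884 and 669 CPM in the TGFβ group, against 476, 485 and 472 CPM in the control group (log2 fold change 0.68 ± 0.10, adjusted p = 3.18e-05). It was at 607, 566 and 612 CPM in the combined group, against 452, 426 and 412 CPM in the NNMTi group (0.47 ± 0.10, adjusted p = 0.00116). *Npc1*, the membrane protein to which NPC2 hands cholesterol, was at 55.3, 50.8 and 60.4 CPM in the combined group, against 36.9, 34.9 and 29.7 CPM in the NNMTi group (0.71 ± 0.15, adjusted p = 0.00102). In the TGFβ group it was at 42.3, 53.0 and 31.8 CPM, against 28.8, 31.8 and 32.7 CPM in the control group. These last ranges overlap, and the rise of 0.48 ± 0.15 (adjusted p = 0.019) did not pass without TGFβ replicate 2 (0.29, adjusted p = 0.113) or without control replicate 1 (adjusted p = 0.0825). Acid sphingomyelinase (*Smpd1*) and the palmitoyl-protein thioesterase *Ppt1* fell. *Smpd1* was at 42.4, 51.0 and 39.0 CPM in the TGFβ group, against 68.5, 70.3 and 68.7 CPM in the control group. It was at 50.9, 58.2 and 52.7 CPM in the combined group, against 81.0, 93.2 and 85.5 CPM in the NNMTi group. The order of the 4 groups was the same for *Ppt1*, at 67.4, 47.3 and 55.5 CPM in the TGFβ group, against 92.5, 92.4 and 91.2 CPM in the control group. For *Ppt1* the values were 65.3, 71.0 and 74.7 CPM in the combined group, against 103, 117 and 109 CPM in the NNMTi group. For both genes every library with TGFβ was below every library without it. The log2 fold changes of *Smpd1* were -0.63 ± 0.12 (adjusted p = 0.000309) without the inhibitor and -0.68 ± 0.11 (adjusted p = 0.000101) with it. Those of *Ppt1* were -0.70 ± 0.12 (adjusted p = 0.000172) and -0.64 ± 0.12 (adjusted p = 0.000301). *Lipa*, encoding lysosomal acid lipase, was called in the TGFβ group against the control group (0.39 ± 0.15, adjusted p = 0.0462). The difference was 0.12 (adjusted p = 0.408) without TGFβ replicate 2, and the call held in only 2 of the 12 leave-one-out fits, those without TGFβ replicate 1 or 3 (adjusted p = 0.0616 to 0.408 in the others). Between the combined and NNMTi groups it passed only without TGFβ replicate 2 among these fits (0.33, adjusted p = 0.00456, against 0.31, adjusted p = 0.103, with it). *Psap*, the precursor of the saposins that activate sphingolipid hydrolases, was at 842, 140.3 and 1427 CPM in the TGFβ group, against 721, 748 and 806 CPM in the control group. The middle value, TGFβ replicate 2, was far below every other library, and no comparison of *Psap* passed (TGFβ against control 0.07 ± 0.62, adjusted p = 0.941, and 0.57, adjusted p = 0.119, without that library). *Asah1*, acid ceramidase, did not pass in either comparison.

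Of the 4 membrane proteins, *Lamp1* was the one that fell in both comparisons. It was at 677, 622 and 725 CPM in the TGFβ group, against 851, 856 and 872 CPM in the control group (log2 fold change -0.35 ± 0.09, adjusted p = 0.00409). It was at 722, 763 and 698 CPM in the combined group, against 873, 892 and 941 CPM in the NNMTi group (-0.31 ± 0.09, adjusted p = 0.00952). Neither pair of groups overlapped, although the second call was lost without NNMTi replicate 3 (adjusted p = 0.0598) or combined replicate 3 (adjusted p = 0.0609). *Lamp2*, needed for the fusion of autophagosomes with lysosomes, was -0.02 ± 0.08 (adjusted p = 0.877) in the TGFβ group against the control group. In the combined group against the NNMTi group it was -0.21 ± 0.08 (adjusted p = 0.0596), passing without TGFβ replicate 2 (adjusted p = 0.0195) or 3 (adjusted p = 0.0427). *Cd63*, a tetraspanin of late endosomes and exosomes, was at 1451, 1478 and 1755 CPM in the combined group, against 1186, 1109.5 and 1124 CPM in the NNMTi group (0.45 ± 0.14, adjusted p = 0.0152). In the TGFβ group it was at 1681, 995 and 1279 CPM, against 1344, 1338 and 1299.6 CPM in the control group, a scatter that left a difference of -0.01 ± 0.14 (adjusted p = 0.968). With TGFβ replicates 2 and 3 both left out the difference was 0.33, a value that rests on a single TGFβ library. The calcium channel gene *Mcoln1* did not pass in either comparison. Of the 3 pump subunits, *Atp6v0a1* fell in the TGFβ group, at 82.5, 92.3 and 66.6 CPM, against 110.5, 116 and 127 CPM in the control group (-0.54 ± 0.12, adjusted p = 0.00211). In the combined group it was at 93.9, 109 and 89.4 CPM, against 106, 94.4 and 115 CPM in the NNMTi group, and those ranges overlapped (-0.11 ± 0.12, adjusted p = 0.519). The 2 responses differed by 0.43 ± 0.17 (adjusted p = 0.365), and by 0.55 (adjusted p = 0.0426) without TGFβ replicate 2.

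Of the 8 tested autophagy genes among the 38, *Gabarapl1* had the largest change by point estimate in both TGFβ comparisons. It encodes a ubiquitin-like protein of the Atg8 family. *Gabarapl1* was at 123, 158 and 97.6 CPM in the TGFβ group, against 303, 335 and 338 CPM in the control group. With the inhibitor it was at 114, 136 and 132 CPM in the combined group, against 348, 354 and 364 CPM in the NNMTi group. No library with TGFβ exceeded 158 CPM and none without it was below 303 CPM. *Gabarapl1* fell by 1.35 (SE 0.13, adjusted p = 2.14e-07) on the log2 scale without the inhibitor and by 1.48 (SE 0.13, adjusted p = 4.52e-08) with it. *Map1lc3b*, which encodes its relative LC3B, differed by -0.07 (adjusted p = 0.796) and -0.20 (adjusted p = 0.414) in the same comparisons. *Sqstm1* was at 370.3, 405 and 321 CPM in the TGFβ group, against 474, 479 and 461 CPM in the control group (-0.36 ± 0.09, adjusted p = 0.00464), and also fell in the combined group against the NNMTi group (-0.33 ± 0.09, adjusted p = 0.00917). The conjugation genes *Atg5* and *Atg7* did not pass in either comparison, nor did *Ulk1* and *Becn1* of the initiation step. *Wipi1*, a phosphoinositide-binding protein of early autophagosomes, was at 102, 100.3 and 89.3 CPM in the combined group, against 72.6, 77.4 and 75.3 CPM in the NNMTi group (0.37 ± 0.13, adjusted p = 0.0367). Its call was lost when any 1 of 6 libraries was left out (control replicate 1, any NNMTi library, or combined replicates 1 or 2; adjusted p = 0.0504 to 0.087).

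Several calls were lost when 1 library was left out. Of the 19 calls in the TGFβ group against the control group, 14 held in all 12 leave-one-out fits. The others were *Npc1*, *Gusb* and *Lipa*, described with their roles, *Hexa*, which lost its call without control replicate 3 (adjusted p = 0.0542), and *Neu1*, which kept it only without TGFβ replicates 1 or 3 or combined replicate 2 (adjusted p = 0.0523 to 0.139 in the other fits). Of the 20 calls in the combined group against the NNMTi group, 14 held. *Atp6v0d1*, a pump subunit gene that did not pass (-0.26, adjusted p = 0.0559), passed without TGFβ replicate 2 or 3 or combined replicate 3 (adjusted p = 0.0235, 0.0449 and 0.0391). Beside *Lamp1* and *Wipi1*, calls were lost for *Cd63* (without NNMTi replicates 2 or 3 or combined replicate 3, adjusted p = 0.0576 to 0.0919), *Glb1* (NNMTi replicate 3 or combined replicates 1 or 3, 0.057 to 0.0723), *Hexa* (NNMTi replicates 1 or 3 or combined replicates 2 or 3, 0.0546 to 0.0832) and *Neu1* (NNMTi replicates 2 or 3 or combined replicates 1 or 3, 0.0503 to 0.0755).

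In the NNMTi group against the control group 1 of the 38 genes rose and 1 fell (5.26%), beside 8.27% of all tested genes (2.47% up, 5.8% down). The number called depended on the fit: it was 10 with only those groups in the fit and 8 with limma-voom and sample quality weights, where 22.6% of all tested genes were called in each. The median log2 fold change was 0.08 over the 38 genes and 0.01 over all. *Gusb* fell to the NNMTi values given above, 28.0 to 33.4 CPM, against 45.5 to 51.6 CPM in the control group (-0.66 ± 0.13, 1.58-fold, adjusted p = 0.00263), and this call held in every leave-one-out fit. *Lamp2* rose to 637, 653 and 617 CPM in the NNMTi group, against 482, 510.5 and 470.2 CPM in the control group (0.38 ± 0.08, 1.30-fold, adjusted p = 0.0074). The groups did not overlap, but the adjusted p was 0.0531 without control replicate 3 and 0.0562 without NNMTi replicate 2. *Ulk1*, at 368, 343 and 387 CPM in the NNMTi group against 269, 268 and 280.4 CPM in the control group, did not pass in the fit of all libraries (0.43 ± 0.20, adjusted p = 0.232). The widest spread of *Ulk1* was in the TGFβ group, at 269, 145 and 313 CPM. Without TGFβ replicate 2 the adjusted p was 0.000226 at a difference of 0.41, and with the NNMTi and control libraries alone it was 1.76e-06. *Mitf* had no overlap between NNMTi and control libraries either, at -0.53 ± 0.17 (adjusted p = 0.0587). Its adjusted p was 0.0405, 0.0163 and 0.0458 when TGFβ replicate 1, 2 or 3 was left out. *Mitf* also passed with RLE size factors, library size alone, DESeq2, limma-voom or only those groups in the fit. Among the leave-one-out fits, *Ctsl* and *Smpd1* passed only without TGFβ replicate 2 (adjusted p = 0.0295 and 0.0201, against 0.102 and 0.0864 with it). *Tfeb* differed by 0.16 ± 0.22 between NNMTi and control (95% interval -0.31 to 0.62, adjusted p = 0.754).

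In the combined group against the TGFβ group 3 of the 38 genes fell and none rose (7.89%), beside 10.4% of all tested genes (3.45% up, 6.97% down). The count was 8 without TGFβ replicate 2, and 0 with only those groups in the edgeR fit (4 at an unadjusted p below 0.05, with 3.19% of all genes called) or without any 1 of the combined libraries (10, 8 and 6 unadjusted without replicates 1, 2 and 3). The median log2 fold change was 0.08 over the 38 genes and -0.02 over all. *Ctsl* was lower in each combined library than in each TGFβ library (-0.35 ± 0.10, 1.28-fold, adjusted p = 0.0231), as were *Npc2* (-0.36 ± 0.10, 1.29-fold, adjusted p = 0.0262) and *Gusb* (-0.41 ± 0.13, 1.33-fold, adjusted p = 0.0479). None of these calls held in every leave-one-out fit. *Npc2* lost its call without any 1 of the combined libraries (adjusted p = 0.067 to 0.0949), *Ctsl* without any 1 of those or NNMTi replicates 1 or 2 (adjusted p = 0.0514 to 0.129), and *Gusb* in every such fit but the one without TGFβ replicate 2 (adjusted p = 0.0508 to 0.196). Among the leave-one-out fits, other genes passed only when a TGFβ library was left out. With all libraries, *Ctsb* also passed with RLE size factors, library size alone or DESeq2. *Npc1* and *Lamp2* did so with limma-voom, and *Ulk1* with no filter. Without TGFβ replicate 2, *Npc1* was 0.54 (adjusted p = 0.012), against 0.35 (adjusted p = 0.149) with it, and *Wipi1* was 0.40 (adjusted p = 0.0136), against 0.18 (adjusted p = 0.433). Likewise *Smpd1* was 0.40 (adjusted p = 0.0236), against 0.27 (adjusted p = 0.152), *Lipa* was 0.37 (adjusted p = 0.0248), against 0.10 (adjusted p = 0.703), and *Atp6v0a1* was 0.36 (adjusted p = 0.0403), against 0.26 (adjusted p = 0.2). Without TGFβ replicate 1, *Cd63* was 0.46 (adjusted p = 0.0187), against 0.24 (adjusted p = 0.285) with it, *Ppt1* was 0.47 (adjusted p = 0.0194), against 0.31 (adjusted p = 0.115), and *Ctsb* was -0.42 (adjusted p = 0.0202), against -0.33 (adjusted p = 0.0543). Without TGFβ replicate 3, *Ulk1* was 0.66 (adjusted p = 0.0284), against 0.44 (adjusted p = 0.183) with it. *Tfeb* differed by 0.21 ± 0.27 between the combined and TGFβ groups (95% interval -0.35 to 0.77, adjusted p = 0.676), *Gabarapl1* by -0.00 ± 0.13 (interval -0.28 to 0.27, adjusted p = 0.992) and *Gaa* by -0.29 ± 0.14 (interval -0.57 to 0.00, adjusted p = 0.202).

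**Figure D4:**
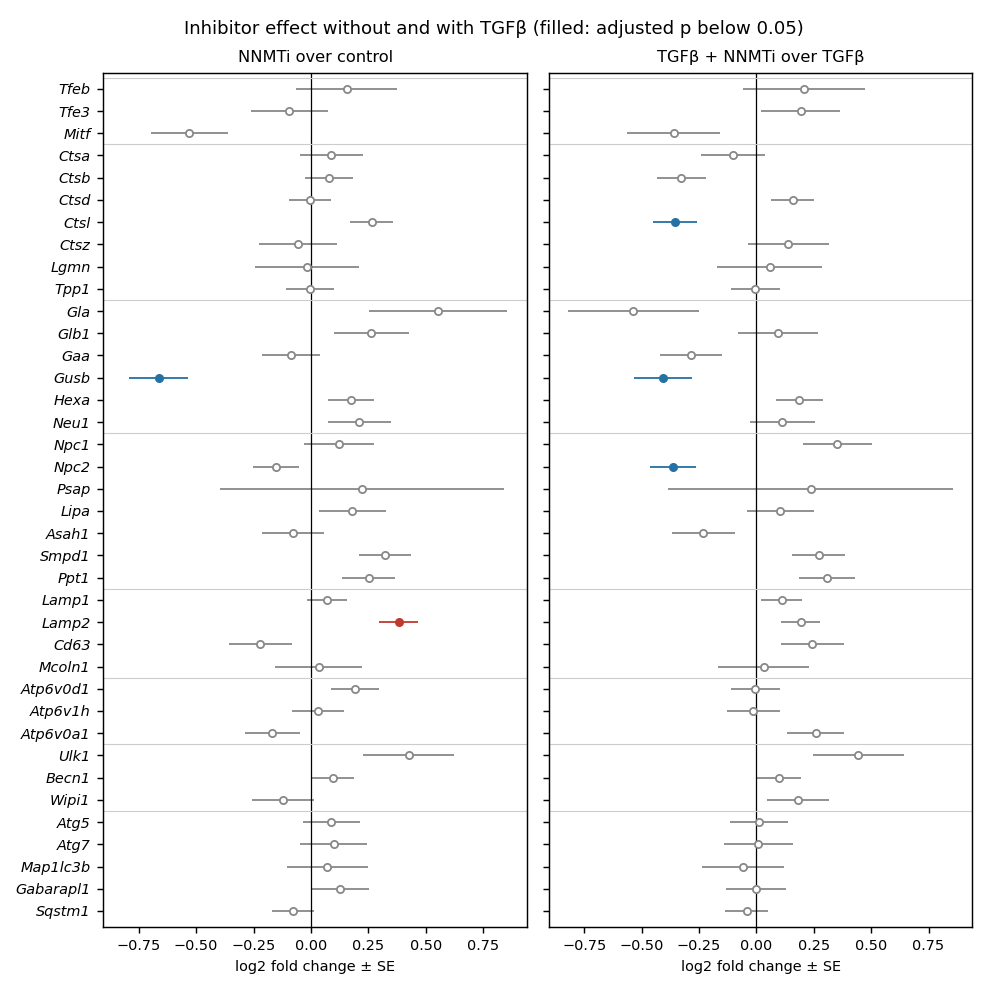
Log2 fold change ± SE of the 38 genes for NNMTi over control (left) and for TGFβ with NNMTi over TGFβ (right), filled where the adjusted p was below 0.05, on a shared horizontal axis. *Gusb* is filled on the left of 0 in both panels, *Lamp2* is filled in the left panel, and *Ctsl* and *Npc2* in the right panel.

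Whether the TGFβ response itself differed with the inhibitor was tested as the difference between the 2 TGFβ effects. *Ctsl* was the 1 gene of the 38 that passed (2.63%, beside 1.11% of all tested genes, 0.641% up and 0.471% down): its rise was smaller by 0.62 ± 0.13 on the log2 scale with the inhibitor than without it (adjusted p = 0.0302). The call was lost without control replicates 2 or 3, any NNMTi library or any combined library (adjusted p = 0.0809 to 0.131). *Cd63* passed without TGFβ replicate 1 (0.68, adjusted p = 0.0391, against 0.46, adjusted p = 0.392, with it) and *Wipi1* without TGFβ replicate 2 (0.54, adjusted p = 0.0288, against 0.30, adjusted p = 0.632, with it). Across the 38 genes the 2 TGFβ effects had the same sign in 34, with a Pearson r of 0.892, and 0.827 over all tested genes; genes are not independent replicates, and the members share the same 12 libraries.

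Neighbouring genes of the same systems, taken from lists chosen in the same way, showed what else moved with TGFβ. Of 159 tested genes in 5 lists, the shares called in the TGFβ group against the control group were 37.9% of 29 further hydrolases (4 up, 7 down), 40% of 25 further membrane and sorting genes (3 up, 7 down), 50% of 16 further pump subunits (3 up, 5 down), 34.4% of 32 genes of mTORC1 and AMPK nutrient sensing (4 up, 7 down) and 31.6% of 57 further autophagy genes (7 up, 11 down), beside the 36.5% of all genes. The medians ran from -0.12 to -0.07 in these lists. With the inhibitor present, in the combined group against the NNMTi group, the counts in the same order were 4 up and 3 down (24.1%), 3 up and 7 down (40%), 2 up and 3 down (31.2%), 2 up and 7 down (28.1%), and 6 up and 10 down (28.1%), beside 36.3% of all tested genes.

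**Figure D5:**
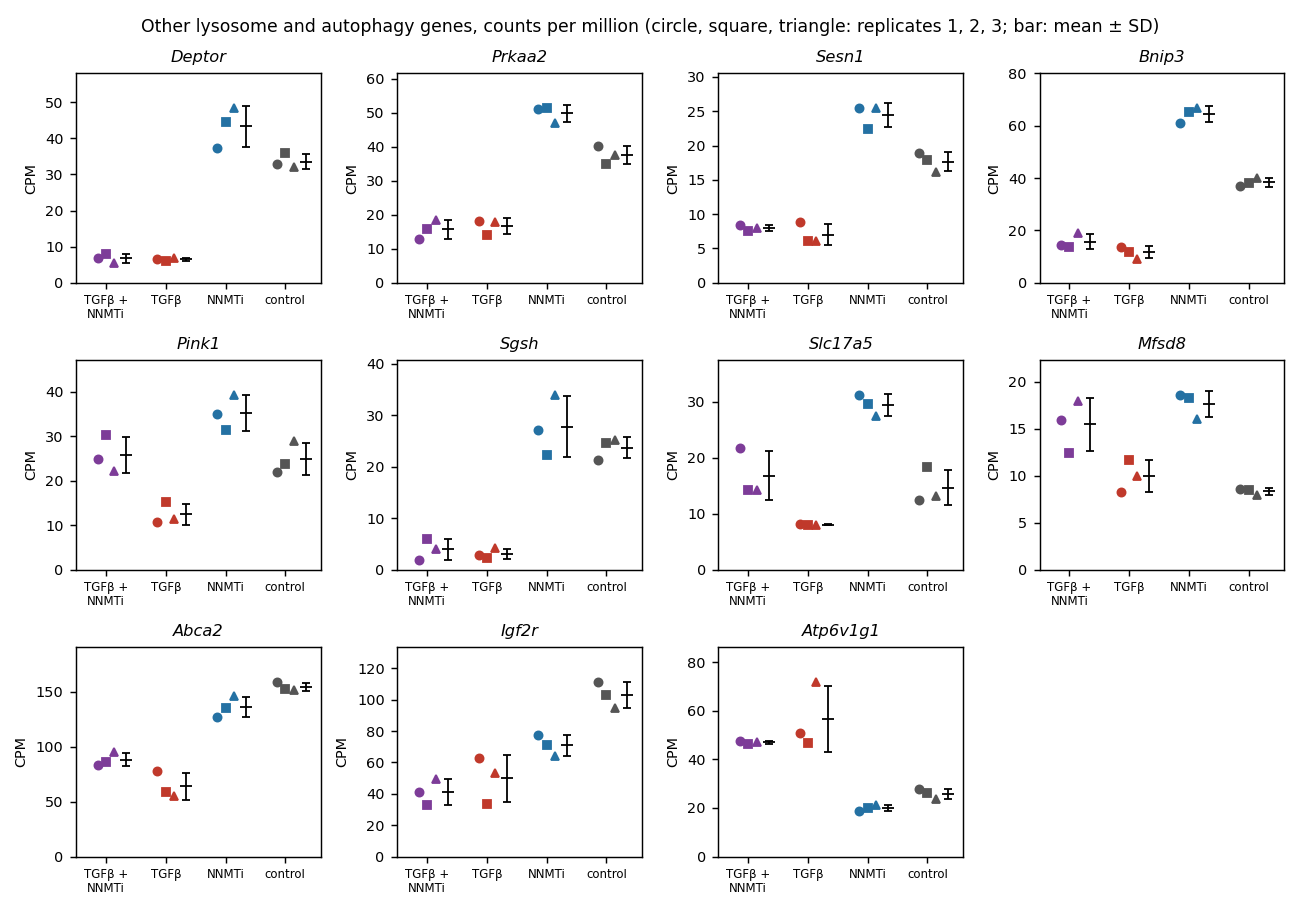
CPM in each library for the 11 further genes that averaged at least 5 CPM and changed at least 2-fold in a comparison, with circles, squares and triangles for replicates 1, 2 and 3 and bars for the mean ± SD of 3 libraries; each vertical axis starts at 0. *Deptor*, *Prkaa2*, *Sesn1*, *Bnip3* and *Sgsh* are low in all 6 libraries with TGFβ, *Atp6v1g1* is high in them, and *Slc17a5* and *Pink1* are lowest in the TGFβ group.

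Of the further genes that averaged at least 5 CPM, the deepest fall by point estimate was in *Sgsh*, encoding a sulfamidase that degrades heparan sulfate. It was at 2.80, 2.21 and 4.21 CPM in the TGFβ group, against 21.3, 24.7 and 25.2 CPM in the control group (log2 fold change -3.10 ± 0.30, 8.59-fold, adjusted p = 2.96e-07), and fell as well with the inhibitor present (-2.80 ± 0.27, adjusted p = 2.25e-07). Of the 32 nutrient-sensing genes, 7 fell and 4 rose in the TGFβ group against the control group, the rises including the AMPK subunit genes *Prkaa1* (0.43, adjusted p = 0.00924) and *Prkab2* (0.66, adjusted p = 0.00424). *Deptor*, encoding an inhibitory partner of mTOR, was at 6.57, 6.02 and 6.89 CPM in the TGFβ group, against 32.8, 35.8 and 31.9 CPM in the control group. The values were 6.83, 7.98 and 5.55 CPM in the combined group, against 37.2, 44.5 and 48.4 CPM in the NNMTi group. The libraries with and without TGFβ did not overlap, with log2 fold changes of -2.39 ± 0.17 (adjusted p = 3.17e-09) and -2.67 ± 0.16 (adjusted p = 2.85e-10). The AMPK subunit gene *Prkaa2* (-1.19 and -1.67) and the sestrin gene *Sesn1* (-1.30 and -1.61) fell in both comparisons, as did the mitophagy receptor gene *Bnip3* (-1.66 and -2.04). The pump subunit gene *Atp6v1g1* rose in both (1.10 and 1.24). *Igf2r*, a mannose 6-phosphate receptor that carries hydrolases to lysosomes, and *Abca2*, a transporter of late endosomes and lysosomes, fell in both comparisons. Their log2 fold changes were -1.06 and -1.26 without the inhibitor and -0.79 and -0.63 with it. *M6pr*, encoding another mannose 6-phosphate receptor, went the other way by mean level. It averaged 110 CPM in the TGFβ group, against 76.3 CPM in the control group. With the inhibitor it averaged 99.1 CPM in the combined group, against 79.9 CPM in the NNMTi group. The calls named in this paragraph held under each of the 20 alternative settings, apart from those of *Prkaa1* and *Prkab2*, which were not examined in this way.

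For the inhibitor, the clearest of the further genes was *Slc17a5*, encoding sialin, which carries sialic acid out of the lysosome. It was at 31.2, 29.6 and 27.4 CPM in the NNMTi group, against 12.5, 18.3 and 13.2 CPM in the control group (1.01 ± 0.18, adjusted p = 0.0015). It was at 21.8, 14.3 and 14.3 CPM in the combined group, against 8.08, 7.97 and 8.03 CPM in the TGFβ group (1.06 ± 0.21, adjusted p = 0.00264). Both pairs of groups were fully separate. *Slc17a5* fell with TGFβ without the inhibitor (-0.86, adjusted p = 0.00276) and with it (-0.81, adjusted p = 0.00172), all 4 calls holding under each of the 20 settings. *Mfsd8*, the lysosomal membrane protein gene altered in a form of neuronal ceroid lipofuscinosis, rose in the NNMTi group against the control group (1.08 ± 0.19, adjusted p = 0.000965). *Bnip3* also rose there (0.74, adjusted p = 0.00151). *Pink1*, encoding a kinase that marks damaged mitochondria for autophagy, was at 24.9, 30.3 and 22.3 CPM in the combined group, against 10.7, 15.1 and 11.5 CPM in the TGFβ group (1.03 ± 0.18, adjusted p = 0.000999). *Pink1* fell in the TGFβ group against the control group (-0.98, adjusted p = 0.000258). In the NNMTi group against the control group *Pink1* differed by 0.50 (adjusted p = 0.0681), and it passed without TGFβ replicate 2 (adjusted p = 0.018). Without that library this comparison also passed for *Igf2r* (adjusted p = 0.000996, against 0.0966 with it) and *Prkaa2* (0.025, against 0.0811). So it did for *Sesn1* (0.0393, against 0.0854) and *Atp6v1g1* (0.0439, against 0.145). With all libraries the log2 differences of these genes were -0.54, 0.41, 0.47 and -0.37 in the same order. These genes and *Pink1* also passed there in limma-voom on all libraries (adjusted p = 0.000607 to 0.0319). Over the 5 lists, in the NNMTi group against the control group, 1 of 29 hydrolases rose and 1 fell (6.9%), 2 of 25 membrane and sorting genes rose (8%), 3 of 32 nutrient-sensing genes rose (9.38%), and 2 of 57 autophagy genes rose and 1 fell (5.26%), beside 8.27% of all tested genes. None of the 16 pump subunits passed in edgeR (4 at an unadjusted p below 0.05). In the combined group against the TGFβ group, 2 hydrolases rose and 3 fell (17.2%), 4 membrane and sorting genes rose (16%), 2 nutrient-sensing genes rose (6.25%), and 3 autophagy genes rose and 1 fell (7.02%), beside 10.4% of all tested genes. Again none of the pump subunits passed (4 at an unadjusted p below 0.05). *Igf2r* passed there without TGFβ replicate 2 (adjusted p = 0.0151, against 0.438 with it) and in limma-voom on all libraries (adjusted p = 0.0275). No gene of the 5 lists passed the edgeR test of a changed TGFβ response in the filtered fit of all libraries (8 at an unadjusted p below 0.05), beside 1.11% of all tested genes. *Abca2* passed this test without TGFβ replicate 1 (adjusted p = 0.00893) or 2 (adjusted p = 0.0324), against 0.0854 in the filtered edgeR fit of all libraries. On all libraries it also passed in edgeR with no filter (adjusted p = 0.0144), DESeq2 (0.0279) and limma-voom (0.0495).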

How the data were processed

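Libraries were made with the QuantSeq 3′ FWD kit, per the labels' protocols, and the authors deposited raw counts per gene, whole numbers with no normalization. Per the submitters' processing notes STAR and HTSeq were used, and the build named there is GRCh38, a human build, although the gene identifiers of the deposited table are mouse Ensembl identifiers; versions and the strand setting of the counting are not given in the sources used here. Of the 40 genes, 15 share exon positions with another gene, 3 of them on the same strand (*Ctsd*, *Ctsl* and *Glb1*), so their counts could be divided or shared. Reads assigned to no gene were left out of library sizes; they averaged 22.1% in the combined group, 21.8% in the TGFβ group, 25.7% in the NNMTi group and 25.9% in the control group. Identifiers were matched to symbols for 55141 of 55487 rows.

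Counts were tested with edgeR 4.0.16 (R 4.3.3): filterByExpr, which kept 13581 genes, TMM scaling, 1 mean per group over 12 libraries, and the robust quasi-likelihood F-test with Benjamini-Hochberg adjustment over all genes tested in each of 5 contrasts, at 0.05. The standard error is the absolute unshrunk log2 fold change of the fit, which can differ from the printed one, divided by the square root of F. Alternatives were DESeq2 1.42.0 and its size factors, library size alone, no filter, limma 3.58.1 voom with sample quality weights, only the groups compared, a replicate block and each library left out. Leaving out TGFβ replicates 2 and 3 together was added after seeing the data. Values in every sample are given for genes called with at least a 1.5-fold change and for the 3 MiT/TFE genes; of the wider lists, genes called with a 2-fold change and at least 5 CPM are named. Genes whose calls turned on a single library were named as well. The members and lists were chosen with earlier results of these data known. Each of the 12 pairs of replicates within a group differed by more than sampling noise.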

Additional observations from a re-analysis of the deposited data

Results flagged for a closer look

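The TGFβ response of *Ctsl* differed with the inhibitor by a test of the difference itself: the rise was 0.40 on the log2 scale in the combined group against the NNMTi group and 1.02 in the TGFβ group against the control group, a difference of -0.62 ± 0.13 (edgeR adjusted p = 0.0302). It passed in 4 of the 12 leave-one-out fits and not in the other 8, where the adjusted p was 0.0809 to 0.131.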

How the results depend on the processing

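The counts of called genes among the 38 moved by more than 1.5 times in the comparisons of the inhibitor. For NNMTi against control the count was 2, and it was 8 with limma-voom and sample quality weights, 10 with only those groups in the fit and 8 without TGFβ replicates 2 and 3 together, while the share of all genes called was 22.6%, 22.6% and 17.1% in the same order, against 8.27%. It was 1 to 6 with 1 library left out. For the combined group against the TGFβ group it was 3, and it was 5 with limma-voom, 0 with only those groups (edgeR, 4 at an unadjusted p below 0.05) and 1 without TGFβ replicates 2 and 3 together, with 14%, 3.19% and 7.19% of all genes called, against 10.4%. It was 0 to 8 with 1 library left out. For the changed TGFβ response it was 1, and 0 to 3 with 1 library left out; a fit of only the groups compared gives no value there. Without TGFβ replicates 2 and 3 the TGFβ group has 1 library, assumed to vary like the other groups. The cause of these shifts was not tested. The count for TGFβ against control was 19, and 16 to 19 with 1 library left out. It was 14 with only those groups in the fit and 22 with limma-voom, with 30.2% and 44.4% of all genes called, against 36.5%. The count for the combined group against the NNMTi group was 20, and 14 to 25 with 1 library left out. It was 25 with only those groups and 24 with limma-voom, with 45.2% and 45.9% of all genes called, against 36.3%. With the replicate block the 5 counts were 18, 2, 3, 20 and 1, in the order TGFβ against control, NNMTi against control, combined against TGFβ, combined against NNMTi and the changed response. The labels name no pairing of the samples. Deviations of same-numbered libraries had a mean correlation of 0.0199 over 18 pairs, with single pairs from -0.0847 to 0.202. With 3 libraries in each group this cannot decide whether the replicate numbers pair the samples. With the block, in TGFβ against control, *Tfe3* passed (adjusted p = 0.0327) and *Neu1* (0.0527) and *Lipa* (0.0507) did not. Scaling by library size alone gave 5 rises and 16 falls for TGFβ against control. Of 1287 values recomputed for 13 named genes, 0 changed sign while called, 38 newly passed and 41 no longer passed. Depth limits *Tfeb*, *Mitf* and *Gla*, with 5, 17 and 20 counts in TGFβ replicate 3, the library with the fewest counts.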
